A study of Mus musculus with 238 samples.

Results

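RNA levels of 8 genes tied to the transcription factor p53 and to cellular senescence were followed in brain regions and liver of aged mice. The genes are Cdkn1a, Cdkn2a, Bbc3, Mdm2, Ccng1, Trp53inp1, Gdf15 and Bax. They were taken as 8 named rows of a table of 21076 gene rows, and all 8 had a row. The study asked how 2 interventions act on gene expression across the mouse brain. All animals were C57BL/6JN mice aged 19 months. In the diet experiment 5 females were restricted in diet (label aDR in the brain libraries, DR in the liver libraries; mice 61, 62, 64, 65 and 67) and 4 females ate freely (AL; mice 63, 66, 68 and 69). In the plasma experiment 3 males received plasma of young mice by injection behind the eye (YMP; mice 73, 77 and 81) and 4 males received saline the same way (PBS; mice 72, 76, 80 and 84). The labels name no engineered allele, and sex and experiment cannot be told apart. Of the libraries, 229 were of brain (15 regions) and 9 were of liver, which was taken from the diet mice alone. A diet group held 3 to 5 libraries of a region, and a plasma group held 2 to 4.

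p53, encoded by Trp53, is a transcription factor that is held low in unstressed cells and accumulates after DNA damage and other stress. Its targets stop the cell cycle, start cell death, or feed back on p53 itself. Senescent cells have left the cell cycle for good, and the cell cycle inhibitors made from Cdkn1a and Cdkn2a are their best known RNA marks. In adult brain most neurons have left the cell cycle already, so these genes are also read there as stress genes. Several of them answer to signals other than p53, among them glucocorticoid hormones for Cdkn1a.

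By role, Cdkn1a (chr17:29090976-29100727, plus strand) encodes p21, an inhibitor of cyclin-dependent kinases. Cdkn2a (chr4:89274471-89294653, minus strand) encodes a kinase inhibitor and, from another reading frame, a protein that shields p53 from Mdm2. Bbc3 (chr7:16308393-16318205, plus strand) encodes Puma, a BH3-only protein that starts apoptosis, and Bax (chr7:45461697-45466898, minus strand) encodes a protein that opens the mitochondrial outer membrane. Mdm2 (chr10:117688875-117710758, minus strand) encodes the ubiquitin ligase that keeps p53 low. Ccng1 (chr11:40748552-40755311, minus strand) encodes cyclin G1, a feedback regulator of p53, and Trp53inp1 (chr4:11156431-11174379, plus strand) a p53-induced nuclear protein. Gdf15 (chr8:70629393-70632456, minus strand) encodes a secreted stress hormone that lowers food intake. Positions are those of the whole gene in GRCm38. Cdkn1a overlaps an antisense gene and Bax overlaps Gm45808 on its own strand. The libraries carry no strand, so the values of these genes may include reads of their neighbours.

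The Cdkn1a window shown is 1 of 2 around its transcription starts. It was picked because it holds a pair of matches to the p53 half-site, an element of 10 bases. The other (chr17:29093519-29093818) holds none. The window shown runs from 250 bases before to 50 bases after a start (chr17:29090729-29091028, plus strand, GRCm38.p6, sequence from RefSeq), with the matches in capitals.
Cdkn1a: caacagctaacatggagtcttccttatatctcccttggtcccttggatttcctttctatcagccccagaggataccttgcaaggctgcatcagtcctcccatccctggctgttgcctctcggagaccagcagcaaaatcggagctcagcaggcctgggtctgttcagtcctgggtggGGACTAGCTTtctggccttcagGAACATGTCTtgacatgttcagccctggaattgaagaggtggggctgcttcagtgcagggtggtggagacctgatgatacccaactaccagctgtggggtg
The 2 half-sites start 73 and 51 bases before the start, with 12 bases between them. Exact matches alone were counted. The 10 bases right after the second match, tgacatgttc, differ from the half-site pattern in their first base alone and were not counted. RefSeq windows were at hand for 7 of the 8 genes (all but Trp53inp1). Of these 7 genes, 4 had a window with at least 1 match on either strand. Counted by window and not by gene, 8.36% of all 32851 windows held at least 1 match. A pair at most 13 bases apart was held by 0.0731% of all windows. The single matches of the other 3 genes are given with 10 bases on each side.
Mdm2: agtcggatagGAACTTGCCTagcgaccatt
Ccng1: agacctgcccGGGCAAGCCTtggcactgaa
Bax: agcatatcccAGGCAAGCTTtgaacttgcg
These matches describe the windows alone, and no binding was measured.

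Depth, the summed count of a library, lay between 0.606 M and 32.4 M (M, mega) around a median of 8.44 M, with 6 of the 238 below 2 M. In liver, the 6 hepatocyte markers summed to at least 71694 CPM in every library (CPM, read counts scaled to a common library total, per M counts). Choroid plexus markers went against some labels. Their sum was 8.95 to 21.3 in YMP corpus callosum against 5162 to 18799 in PBS corpus callosum, and libraries labelled choroid plexus also held neuron and oligodendrocyte markers. In PBS mice Ttr, Kcne2, Folr1, Kl, Aqp1, Clic6 and Otx2 had their highest mean in corpus callosum, and Cldn2 in choroid plexus. Levels given below under the labels choroid plexus, corpus callosum and SVZ may thus be of mixed tissue. Pons of aDR mouse 67 stood farthest from the libraries of its tissue (r = 0.865 with the median of the other 8, over 12379 genes). It held 158768 CPM of the pituitary gene Prl, against at most 1362 in the other 8 pons libraries. The next was caudate putamen of aDR mouse 64 (r = 0.947), where 72 ribosomal protein genes summed to 37003 CPM against 10284 to 14898 in the other 8. Results that rest on these libraries are given with and without them.

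For the levels below, CPM was scaled by TMM among the libraries of a tissue and experiment. Levels of different regions thus had no joint TMM scaling. Against 1 TMM scaling over all libraries, the rank correlation of levels was 0.886 for Bax. It was 0.932 to 0.989 for Cdkn1a, Bbc3, Mdm2, Ccng1 and Trp53inp1. Per kilobase of exon, in the median brain group of control mice, Ccng1 stood highest at 31.2 CPM per kb, followed by Bax at 24.4 and Mdm2 at 14.5. Cdkn1a followed at 4.66, Bbc3 at 3.56 and Trp53inp1 at 1.10 CPM per kb. The other 2 genes were near the detection limit in brain. Cdkn2a had 12 counts in all 229 brain libraries together, in 9 libraries, with at most 3 in any of them. This is 0.00580 CPM over the pooled brain counts, with an exact Poisson interval (95%, counting error only) of 0.00300 to 0.0101. In the 55 of 60 brain groups without a count, 3 counts over the group would be 0.0516 to 0.229 CPM. Liver gave 7 Cdkn2a counts in 5 of 9 libraries, 5 of them in DR mice and 2 in AL mice. Gdf15 had 374 counts in brain, with 99 of 229 libraries at 0 and 2 libraries with at least 10. Those were SVZ of PBS mouse 72 with 33 counts and the pons of aDR mouse 67 with 12. The SVZ library held 19578 CPM of the choroid plexus marker Ttr (r = 0.948 with the median of the other 6 SVZ libraries of its experiment). The part of choroid plexus RNA in its Gdf15 count was not tested. Neither gene passed the filter on low counts in a brain region, so both are described there by counts alone.

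Levels of the remaining 6 genes were compared between brain regions in the control mice, the AL and PBS mice separately, to learn where each is most expressed. Cdkn1a was far higher in olfactory bulb than elsewhere. Bbc3 was high in cerebellum, olfactory bulb and hippocampus, Bax in cerebellum, Ccng1 in visual and motor cortex, Mdm2 in the SVZ and corpus callosum, and Trp53inp1 in olfactory bulb. All 6 differed between regions in both sets of mice (edgeR F test, adjusted p at most 0.00259 in AL and 0.0321 in PBS), as did 98.1% of all genes tested in AL and 96.1% in PBS. The PBS value of 0.0321 is that of Trp53inp1. It was 0.283, 0.375 and 0.312 without PBS mouse 72, 76 or 80 and 1.97e-09 without mouse 84. These tests do not use the fact that each mouse supplies all regions. With the mouse as a block the PBS value of Trp53inp1 was 2.83e-12. Against the mean of the other 14 regions, 46 of 90 gene by region tests were called in AL (51.1%; 47.6% of all such tests) and 37 of 90 in PBS (41.1%; 41.3% of all). Of these, 33 were called in the same direction in both sets and 0 in opposite directions. In bulk tissue, fewer cells of a type and less RNA per cell cannot be told apart.

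**Figure D1:**
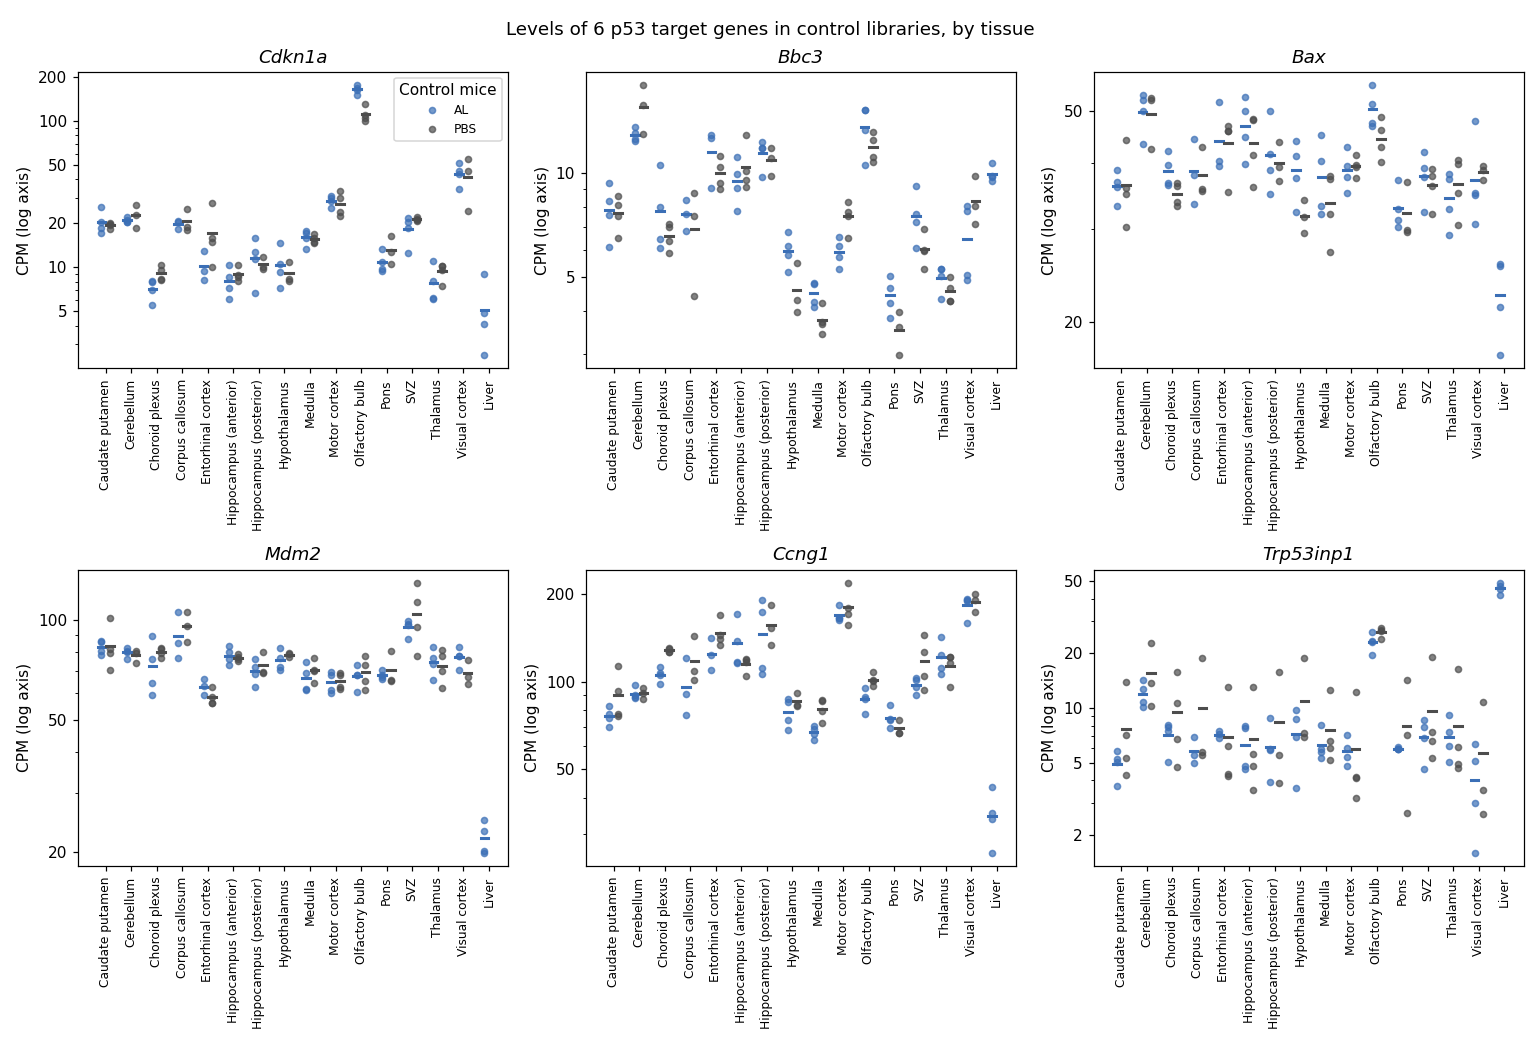
CPM (log axis) of 6 p53 target genes in each control library, by tissue: AL mice in blue, PBS mice in grey, with a bar at each group mean. Cdkn1a in olfactory bulb lies between 100.3 and 175.8 CPM, above every other tissue, and Trp53inp1 is highest in liver.

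Cdkn1a in olfactory bulb was 151.5, 168.8, 175.8 and 163.4 CPM in AL mice 63, 66, 68 and 69. In PBS mice 72, 76, 80 and 84 it was 110.1, 131.6, 100.3 and 105.0 CPM. The 2 sets did not overlap, and they differ in sex as well as experiment. Visual cortex came next with 43.6 ± 7.15 (SD, n = 4) in AL and 24.3 to 55.5 (n = 3) in PBS, then motor cortex with 28.7 ± 2.28 and 27.3 ± 4.95 (SD, n = 4 each). In AL these 3 regions did not overlap their neighbours in the order of levels. From cerebellum (21.0) down to choroid plexus (7.14) each AL region overlapped the next. In PBS olfactory bulb alone was set apart, and the lowest region was anterior hippocampus (8.96). The highest region was 23.1 times the lowest in AL and 12.5 times in PBS. Motor cortex, olfactory bulb and visual cortex were called higher than the other regions in both sets. Choroid plexus, both hippocampal samples, hypothalamus and thalamus were called lower in both.

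Bbc3 ran from 13.5 ± 2.21 CPM (SD, n = 4) in olfactory bulb and 12.9 ± 0.515 in cerebellum down to 4.44 in pons of AL mice (3.83 to 5.04, n = 4). In PBS mice cerebellum led with 15.5 ± 2.47 (SD, n = 3) and pons was again lowest with 3.52 ± 0.496. Cerebellum, entorhinal cortex, both hippocampal samples and olfactory bulb were called higher in both sets, and hypothalamus, medulla, pons and thalamus lower in both. No neighbours in the AL order of Bbc3 were free of overlap. Bax, whose protein acts downstream of Puma, followed a like order over a narrower range. It ran from 50.6 ± 4.23 in olfactory bulb to 32.8 ± 3.05 in pons of AL mice. Its highest region was 1.54 times its lowest in AL and 1.56 times in PBS, against 3.05 and 4.41 times for Bbc3. The region means of Bbc3 and Bax (log2 CPM) correlated at r = 0.843 in AL and 0.906 in PBS over 15 regions that come from the same animals. Cerebellum was the region where Bax was called higher in both sets.

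The p53 feedback genes had other orders. Mdm2 was highest in the SVZ, at 94.9 ± 5.11 CPM in AL and 103.7 ± 22.0 in PBS (SD, n = 4 each), and lowest in entorhinal cortex (62.8 and 58.4). Corpus callosum and caudate putamen were called higher with it in both sets, and olfactory bulb and entorhinal cortex lower (with the mouse as a block, motor cortex too). Ccng1 was highest in visual cortex (182 ± 15.7 in AL, n = 4, and 187 ± 12.9 in PBS, n = 3; SD) and motor cortex (169 ± 9.69 and 181 ± 26.2; SD, n = 4 each). It was lowest in medulla of AL (67.0) and pons of PBS (69.1). Posterior hippocampus was called higher with the 2 cortices in both sets, and 6 regions were called lower in both. With the mouse as a block, entorhinal cortex was called higher as well. Trp53inp1 reached 23.0 ± 2.70 in olfactory bulb of AL and 26.2 ± 1.62 in PBS (SD, n = 4 each), followed by cerebellum (10.2 to 14.2 in AL and 10.3 to 22.7 in PBS). Its other AL region means lay between 4.01 and 7.24. Olfactory bulb was the region called higher in both sets without the block, and none was called lower in both. With the mouse as a block, cerebellum was also called higher in both, and visual cortex lower (-0.74 ± 0.19 in AL and -0.78 ± 0.20 in PBS, log2, SE; edgeR adjusted p = 0.00122 and 0.00197).

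Liver differed from brain in which genes led. Trp53inp1 in AL liver was 45.8 ± 2.88 CPM (SD, n = 4), above all 15 brain regions. Gdf15 was 7.71 ± 2.71. A few very abundant genes take much of the liver RNA, so the scale between liver and brain is uncertain. Trp53inp1 was 7.29 times the median brain region on the first scale and 13.9 times with 1 TMM scaling over all libraries, and Bbc3 was 1.30 and 2.44 times. Cdkn1a (0.320 and 0.603), Mdm2 (0.295 and 0.582) and Ccng1 (0.356 and 0.673) were lower in liver on both scales. Bax was lower on the first scale (0.581) and higher on the second (1.11). These ratios were not tested.

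The diet comparison in liver asked whether these genes differ between restricted and freely fed mice outside the brain. Bbc3 fell to 51.4% of its AL level, and it was the single gene of the 8 to pass the edgeR test in the 187 gene by tissue tests of both experiments. Bbc3 was 9.77, 9.76, 10.7 and 9.45 CPM in AL mice 63, 66, 68 and 69. It was 5.05, 5.15, 4.84, 5.57 and 4.88 CPM in DR mice 61, 62, 64, 65 and 67. Every DR library was below every AL library (the groups did not overlap for 4.22% of all liver genes), with raw counts of 20 to 52 in DR and 66 to 113 in AL. The means were 5.10 ± 0.292 (SD, n = 5) and 9.91 ± 0.530 (SD, n = 4), a log2 fold change of -0.96 ± 0.14 (SE; edgeR adjusted p = 0.0245). Of the 11815 liver genes tested 0.22% were called, and 0.0677% were called lower. The call was lost on leaving out any of 7 of the 9 mice (adjusted p 0.0649 to 0.0934) and kept without mouse 61 (0.0357) or 67 (0.0372), while the log2 fold change stayed between -0.99 and -0.93. The 6 blood markers summed to 69.5 to 98.9 CPM in DR and 103 to 240 CPM in AL. This sum moved with Bbc3, none of the 6 was called, and its part in the result was not tested. The hepatocyte markers summed to 77645 to 99607 CPM in DR and 71694 to 86573 in AL.

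**Figure D2:**
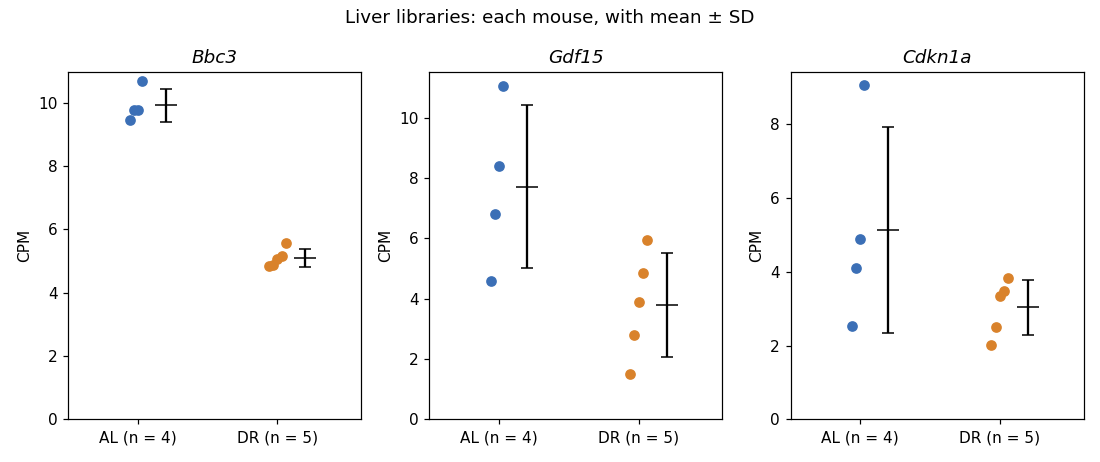
CPM of Bbc3, Gdf15 and Cdkn1a in each liver library, AL (n = 4) and DR (n = 5), with mean ± SD beside the points. The DR values of Bbc3 (4.84 to 5.57) lie below all AL values (9.45 to 10.7), whereas the groups overlap for Gdf15 and Cdkn1a.

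Gdf15, the other liver gene with an unadjusted p under 0.05, did not pass. Its AL values were 6.80, 11.04, 8.41 and 4.60 CPM and its DR values 1.52, 5.95, 4.84, 3.90 and 2.79. The groups overlapped, and the log2 fold change was -0.99 ± 0.36 (SE; edgeR unadjusted p = 0.0181, adjusted p = 0.395, and 0.206 to 0.678 over the alternatives). Cdkn1a in liver was 2.52, 4.88, 9.06 and 4.10 CPM in AL and 2.02, 3.83, 2.51, 3.34 and 3.48 CPM in DR. One AL mouse, 68, was above the rest, and the log2 fold change was -0.73 ± 0.35 (SE; edgeR adjusted p = 0.574). Log2 fold changes of the other liver genes tested were -0.31 for Ccng1, -0.10 for Trp53inp1, -0.02 for Mdm2 and 0.06 for Bax, and none passed.

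In brain, the diet comparison gave no call among the 8 genes in any region. There were 90 gene by region tests of the 6 testable genes, and 0.0525% of all 205693 such tests were called. At an unadjusted p under 0.05 there were 12 tests (13.3%; 6.24% of all tests), 10 higher (11.1%; 3.01% of all) and 2 lower (2.22%; 3.23% of all). Regions of a mouse are not independent, so these 90 tests are not either. CPM did not overlap between the groups in 5 of 90 tests, or 5.56%, against 3.07% of all tests. Of the 10 higher, 5 were tests of Cdkn1a.

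**Figure D3:**
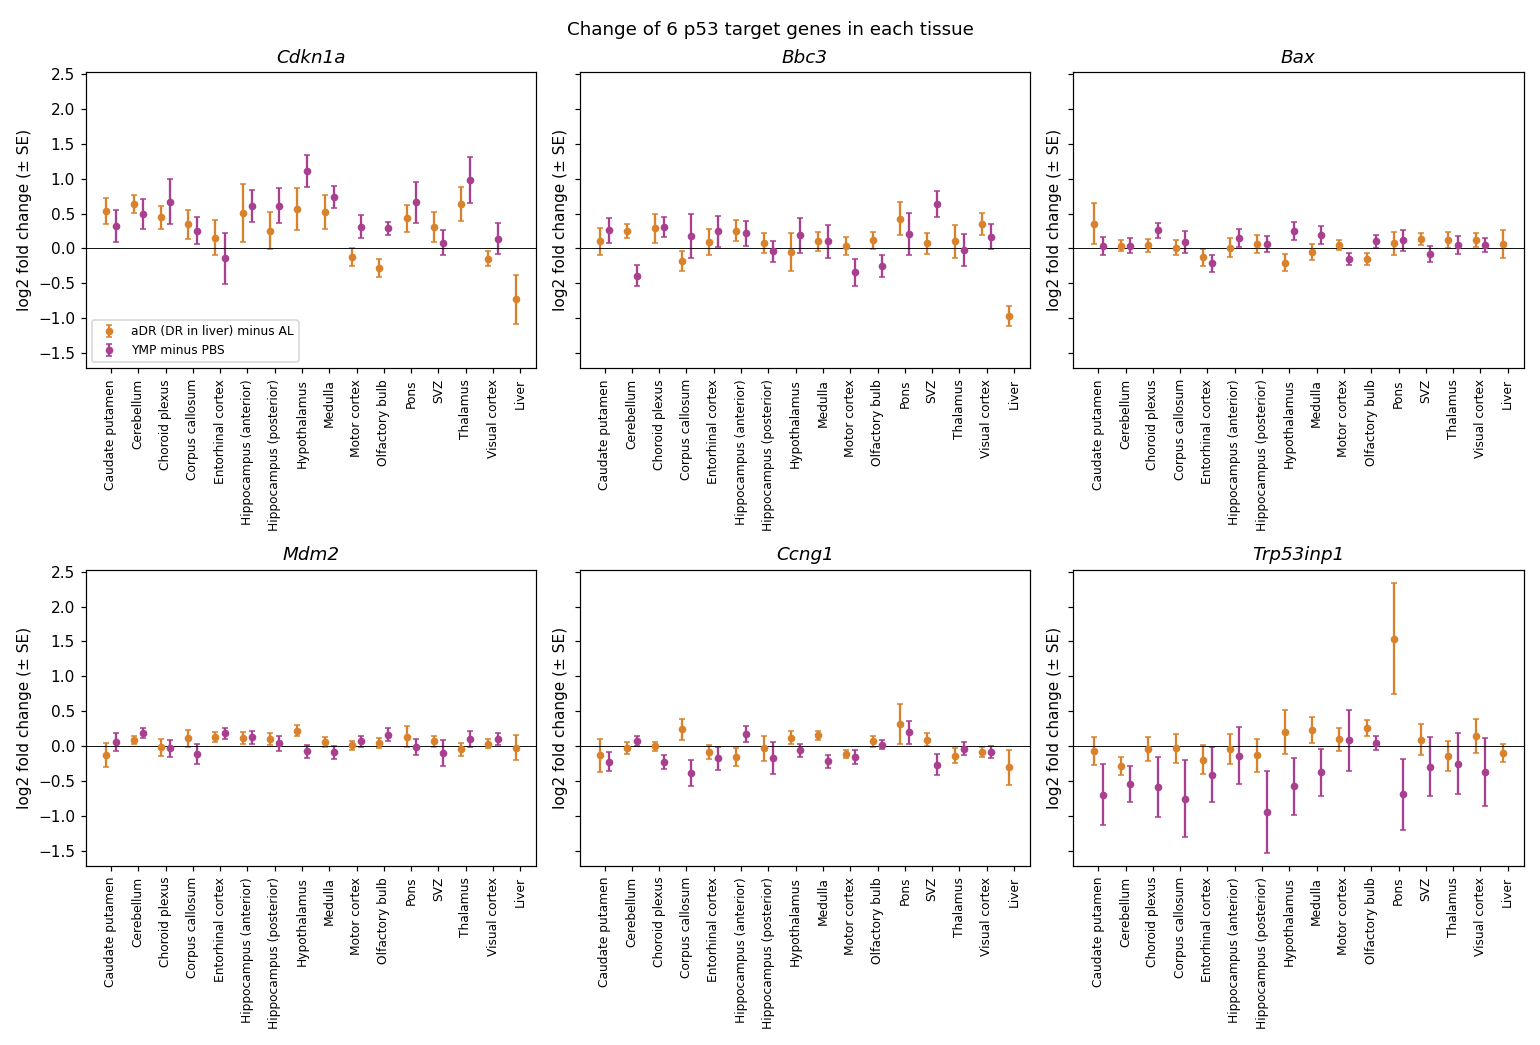
Log2 fold change (± SE) of 6 p53 target genes in each tissue, restricted minus AL in orange and YMP minus PBS in purple. Cdkn1a lies above 0 in 12 of 15 brain regions for diet and 14 of 15 for plasma, while Bbc3 in liver lies at -0.96.

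Cdkn1a was higher in aDR than in AL mice in 12 of 15 regions, with a median log2 fold change of 0.43. Of the genes tested in all 15 regions, 15% were higher in at least 12. Its largest change was in cerebellum, where it was 20.5, 22.3, 21.0 and 20.4 CPM in AL and 28.8, 31.1, 31.9, 28.1 and 44.9 CPM in aDR mice. All aDR mice were above all AL mice, mouse 67 farthest. The log2 fold change was 0.64 ± 0.13 (SE; edgeR adjusted p = 0.0942, and 0.00179 to 0.277 over the alternatives, DESeq2 giving the lowest). The 3 regions that went the other way were motor cortex, visual cortex and olfactory bulb, which had the 3 highest AL levels. The groups overlapped in each of them. The largest fall was in olfactory bulb, where the gene is most abundant. AL values there were 151.5 to 175.8 and aDR values 115.0, 170.0, 130.5, 90.1 and 156.2, with overlap (log2 fold change -0.28 ± 0.13, SE; edgeR unadjusted p = 0.0474, adjusted p = 0.362). The lowest aDR value, in mouse 65, is from a library of 1.83 M counts.

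To use all regions at once, each mouse was given 1 value per gene, its mean log2 deviation from the region levels over its own brain regions. Cdkn1a values were 0.04, -0.01, 0.08, -0.06 and 0.58 in aDR mice 61, 62, 64, 65 and 67. They were -0.23, -0.19, -0.15 and -0.06 in AL mice 63, 66, 68 and 69. The groups did not overlap, as for 8.3% of all genes, but the lowest aDR mouse and the highest AL mouse were nearly level and mouse 67 stood apart. Mouse 67 was the highest of its region in 10 of 15 regions. The difference was 0.29 ± 0.12 (SE; interval 0.02 to 0.55; limma unadjusted p = 0.0374, adjusted p = 0.275), and it was 0.17 (adjusted p = 0.120) without mouse 67. The summed blood markers moved with these values: their median over the brain libraries of a mouse was 10.6, 18.8, 19.8, 4.22 and 19.8 CPM in aDR mice 61, 62, 64, 65 and 67 and 4.26 to 8.51 CPM in AL mice. Their part in the Cdkn1a difference was not tested. Of all 15616 genes 0.788% were called across regions and 16.1% had an unadjusted p under 0.05 (7.32% higher).

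Bbc3 had another direction in brain than in liver. It was higher in aDR mice in 13 of 15 regions by a median of 0.10 on the log2 scale, and 8.7% of all genes were higher in at least 13. Without the libraries of pons of mouse 67 and caudate putamen of mouse 64 it was higher in 12. Mouse values were -0.06, -0.03, 0.09, 0.09 and 0.21 in aDR mice and -0.06, -0.05, -0.10 and -0.09 in AL mice, with a slight overlap. The difference was 0.14 ± 0.05 (SE; limma unadjusted p = 0.0260, adjusted p = 0.236). The liver change minus the brain change of each mouse was tested directly. For Bbc3 it was -1.06 ± 0.15 (SE; limma adjusted p = 0.0200), a call shared by 0.167% of the 11350 genes tested. That call was lost without any of 7 of the 9 mice (adjusted p up to 0.0956), at a difference between -1.09 and -1.02. No other gene of the 6 passed this test, Cdkn1a being nearest at -0.89 ± 0.33 (SE; adjusted p = 0.476).

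The other 4 genes showed small differences across brain regions for diet. They were 0.05 for Mdm2 (interval -0.02 to 0.13), -0.002 for Ccng1 (-0.14 to 0.14), 0.09 for Trp53inp1 (-0.13 to 0.30) and 0.03 for Bax (-0.07 to 0.13). None passed. Pons gave the largest single value of the diet data, for Trp53inp1. It was 64.9 CPM in aDR mouse 67 against 5.46 to 7.10 in the other 8 pons libraries. The same library was also above the other 8 for Ccng1 (180 against 66.7 to 83.4 CPM), Mdm2 (100 against 54.7 to 76.2), Bbc3 (9.11 against 3.83 to 5.95), Bax (45.8 against 28.3 to 38.4) and Gdf15 (3.31 against 0 to 0.315). With it, the log2 fold change of Trp53inp1 in pons was 1.54 ± 0.80 (SE; edgeR adjusted p = 0.997), and without it 0.08 ± 0.14. With and without it, the values were 0.31 and -0.06 for Ccng1, 0.14 and 0.01 for Mdm2, 0.43 and 0.25 for Bbc3, 0.07 and -0.05 for Bax, and 0.43 and 0.41 for Cdkn1a. In that library 6 pituitary genes summed to 210774 CPM and the oligodendrocyte markers to 7419 CPM against 23265 to 36109. Their part in these values was not tested. In caudate putamen, aDR mouse 64 had Bax at 92.1 against 33.2 to 41.3 CPM in the other 8 libraries, and Ccng1 at 31.0 against 69.7 to 92.0. Without that library the caudate log2 fold change of Bax went from 0.35 to -0.02, that of Ccng1 from -0.13 to 0.06, that of Mdm2 from -0.12 to 0.02, that of Bbc3 from 0.10 to -0.02, and that of Trp53inp1 from -0.07 to 0.01. For Cdkn1a it went from 0.54 to 0.40 (edgeR adjusted p = 0.618 and 0.387).

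In the plasma experiment none of the 90 gene by region tests was called, as against 0.0127% of all 205500. At an unadjusted p under 0.05 there were 13 tests (14.4%; 6.11% of all tests), 10 higher (11.1%; 2.65% of all) and 3 lower (3.33%; 3.46% of all). CPM did not overlap in 10 of 90, or 11.1%, against 9.21% of all tests. Of the 10 higher, 7 were tests of Cdkn1a. This gene was higher in YMP mice in 14 of 15 regions, with a median log2 fold change of 0.50, and 1.86% of all genes were higher in at least 14.

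Cdkn1a in hypothalamus was 8.14, 10.9 and 8.30 CPM in PBS mice 72, 80 and 84 and 16.05, 16.9 and 25.8 in YMP mice 73, 77 and 81. All YMP values were above all PBS values (log2 fold change 1.11 ± 0.22, SE; edgeR unadjusted p = 0.00128, adjusted p = 0.881, and as low as 0.0231, with DESeq2, over the alternatives). The 3 thalamus markers in these hypothalamus libraries summed to 95.8 to 207 CPM in PBS and 225 to 596 in YMP, so this sum moved with the groups, and its part was not tested. In medulla Cdkn1a was 14.9, 15.9, 16.98 and 14.7 CPM in PBS and 19.9, 24.8 and 32.3 in YMP mice, again without overlap (0.73 ± 0.16, SE; edgeR adjusted p = 0.438). In olfactory bulb it was 100.3 to 131.6 in PBS and 114.1, 130.8 and 146.7 in YMP mice, with overlap (0.29 ± 0.09, SE; edgeR adjusted p = 0.464).

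Across regions, the Cdkn1a mouse values were -0.18, 0.35 and 0.54 in YMP mice 73, 77 and 81 and -0.08, -0.08, -0.27 and -0.27 in PBS mice 72, 76, 80 and 84. Mouse 73 lay among the PBS mice, and the other 2 YMP mice lay above them. The summed blood markers did not move with these values. Their median was 14.9, 8.53 and 6.89 CPM in YMP mice 73, 77 and 81. In PBS mice 72, 76, 80 and 84 it was 12.3, 3.11, 7.07 and 42.4 CPM, and the part of blood was not tested. Groups of mouse values did not overlap for 10.1% of all genes in this experiment. The difference was 0.41 ± 0.16 (SE; interval 0.04 to 0.79; limma unadjusted p = 0.0352, adjusted p = 0.548). It was 0.63 without mouse 73 and 0.26 without mouse 81. No gene of 15768 was called across regions for plasma (0%), and 8.31% had an unadjusted p under 0.05 (2.54% higher). Fitted instead on all libraries with the mouse as a block (limma voom with an estimated correlation between regions of a mouse), Cdkn1a passed for plasma at 0.40 (adjusted p = 0.00964), among 3.08% of all genes. It did not pass for diet in that fit (0.20, adjusted p = 0.0647). That fit took 1 correlation for all genes (0.0769 for plasma), so regions of a mouse counted nearly as separate animals. Treatment varied between mice alone, so its p-values can be too small.

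**Figure D4:**
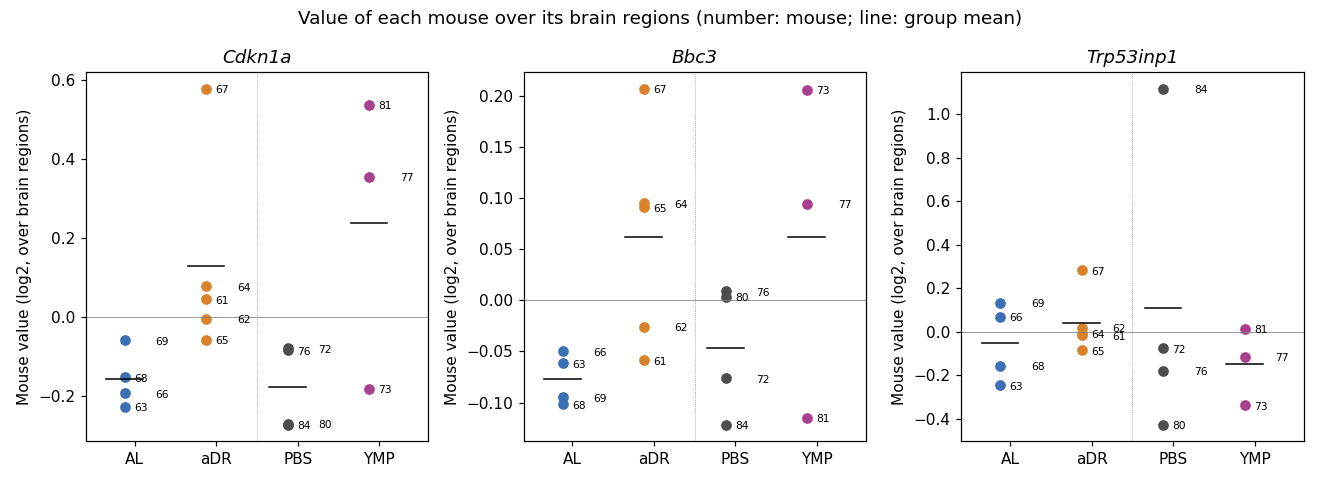
Value of each mouse (log2, mean deviation from region levels over its brain regions) for Cdkn1a, Bbc3 and Trp53inp1, with mouse numbers and a line at each group mean. aDR mouse 67 (0.58) and YMP mice 77 and 81 (0.35 and 0.54) lie highest for Cdkn1a, and PBS mouse 84 (1.12) for Trp53inp1.

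The mouse values of Bbc3 under plasma were 0.21, 0.09 and -0.11 in YMP mice 73, 77 and 81 against -0.08, 0.01, 0.004 and -0.12 in PBS mice 72, 76, 80 and 84 (difference 0.11 ± 0.08, SE; limma adjusted p = 0.752). It was 0.04 without YMP mouse 73 and 0.19 without YMP mouse 81. Its lowest p in a region was in the SVZ, with 6.92, 6.00, 5.28 and 5.95 CPM in PBS and 9.83, 10.8 and 7.87 CPM in YMP mice. The groups did not overlap (0.63 ± 0.19, SE; edgeR adjusted p = 0.217, and 0.141 to 0.632 over the alternatives). The choroid plexus markers in these SVZ libraries summed to 2801 to 21126 CPM in PBS and 31.0 to 56.1 in YMP mice, and their part was not tested. In cerebellum Bbc3 went the other way, at 11.7 ± 0.507 in YMP and 15.5 ± 2.47 in PBS mice (SD, n = 3 each; log2 fold change -0.39; edgeR adjusted p = 0.450). A test of whether the plasma effect differs between regions gave Bbc3 an unadjusted p of 0.0105 (edgeR adjusted p = 0.324). No gene of the 6 passed that test in either experiment, whereas 0.824% of all genes did for plasma and 0.0128% for diet.

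The Trp53inp1 difference in the plasma experiment rested on a single control animal. PBS mouse 84 had 10.8 to 27.6 CPM over its regions, with a median of 15.8, and was the highest of its region in 14 of 15. Its mouse value was 1.12, against -0.43 to -0.08 in the other 3 PBS mice and -0.34 to 0.01 in YMP mice. The gene was lower in YMP mice in 13 of 15 regions, as were 6.08% of all genes in at least 13, with a difference across regions of -0.26 ± 0.35 (SE; limma adjusted p = 0.860), which became 0.08 without mouse 84. In this mouse 32 of 15768 genes stood at least 1 log2 unit above all other plasma mice, Trp53inp1 being number 19 among them by that gap. In each of the other 6 mice at most 2 genes did so. The median over its libraries of the summed blood markers was 42.4 CPM, against 3.11 to 14.9 in the other 6 mice, and the part of blood in its Trp53inp1 value was not tested. Differences for the other genes were -0.09 for Ccng1 (interval -0.22 to 0.03), 0.06 for Bax (-0.07 to 0.19) and 0.04 for Mdm2 (-0.08 to 0.17), and none passed.

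**Figure D5:**
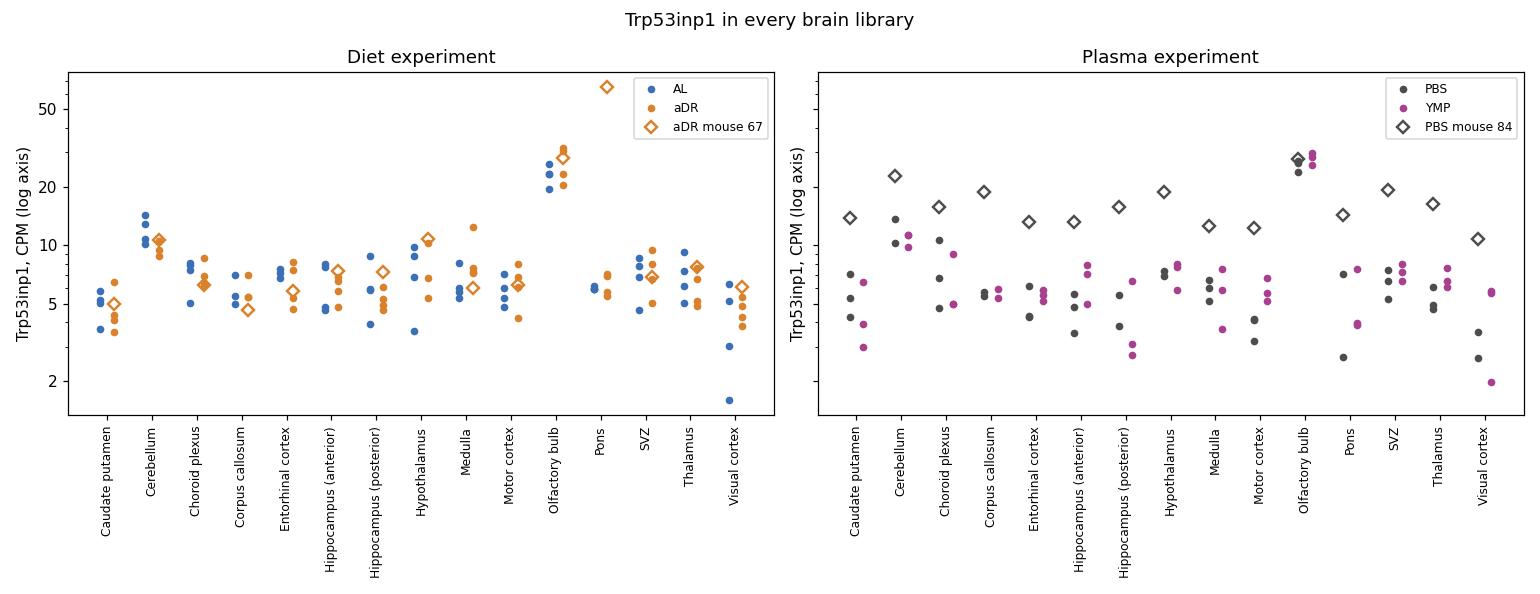
Trp53inp1 (CPM, log axis) in every brain library by region, diet experiment on the left and plasma experiment on the right. PBS mouse 84 (open diamonds, 10.8 to 27.6 CPM) is highest in 14 of 15 regions, and the diamond of aDR mouse 67 in pons is at 64.9 CPM.

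Other genes of the pathway were read from lists. Of 30 other p53 pathway genes 29 could be tested across brain regions and 0 were called by limma in either experiment. For diet 21 were higher and 8 lower, with a median log2 difference of 0.03 against -0.01 over all genes, and 7 had an unadjusted p under 0.05, as had 16.1% of all genes. The 5 with the smallest p were Sertad1 (0.20, adjusted p = 0.0976), Sesn1 (0.13), Aen (0.09), Xpc (0.12) and Rrm2b (-0.09). For plasma 12 were higher and 17 lower, median -0.03, and 4 had an unadjusted p under 0.05, as had 8.31% of all genes. The 5 with the smallest p were Plk2 (0.24), Ppm1d (0.14), Perp (-0.35), Pmaip1 (0.25) and Pidd1 (-0.33). Of 20 senescence and secretory genes 13 could be tested for diet and 14 for plasma, again with 0 called and 1 at an unadjusted p under 0.05 in each. Lmnb1, a nuclear lamina gene whose loss marks senescence, led for diet at -0.17, before Rb1, Plaur, Cdkn2c and Igfbp3. Glb1, Plaur, Mmp12, Ccl8 and Ccl2 led for plasma. Of 10 integrated stress response genes tested none was called in either experiment (3 for diet and 0 for plasma at an unadjusted p under 0.05, beside the same 16.1% and 8.31% of all genes), Atf3 having the lowest p for diet (0.32) and Vldlr for plasma (-0.13).

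Glucocorticoid-responsive genes, which answer to adrenal stress hormones, gave calls under diet. There all 20 tested were higher in aDR mice across brain regions and 6 were called by limma (Plin4 at 2.03, Zbtb16 0.57, Arrdc2 0.53, Tsc22d3 0.50, Mertk 0.39 and Per1 0.33), beside 0.788% of all genes. The median over the 20 genes was 0.34, and Hif3a counted as higher at 1.09 ± 2.25 (SE). The list was chosen with earlier results of these data known, so these counts are no independent test. Within tissues, genes of this list were also called under diet in cerebellum (Tsc22d3 at 0.54 and Per1 at 0.69) and in liver (Plin4 at 2.80 and Zbtb16 at 1.66), and in 6 further regions Plin4, Zbtb16, Tsc22d3, Per1, Fkbp5 or Mertk was called higher. Of all tests 0.0525% were called in brain regions and 0.22% in liver. No gene of the p53 pathway or senescence lists was called within a tissue. Under plasma 15 of 20 were higher and 0 were called, with a median of 0.20. An unadjusted p under 0.05 was seen for 2 of them and for 8.31% of all genes. Of these 2, Cdkn1c was lower (-0.52) and Klf9 higher (0.18). Fkbp5 (0.19), Nfkbia (0.42) and Errfi1 (0.25) had the next smallest p. Plin4, which led under diet, was at -0.06. By mouse, the median over the 20 genes was 0.20, 0.09, 0.06, 0.07 and 0.35 in aDR mice 61, 62, 64, 65 and 67, and it ran from -0.32 to -0.14 in AL mice. It was -0.17, 0.22 and 0.17 in YMP mice 73, 77 and 81, and it ran from -0.19 to -0.03 in PBS mice. The list median moved with Cdkn1a by group, and the part of these genes in the Cdkn1a values was not tested. Over all 229 brain libraries, taken as deviations from their group mean, the genes most like Cdkn1a were Mt1 (r = 0.546), Mt2 (r = 0.544) and Nfkbia (r = 0.538), all from that list. These libraries share animals and differ in depth. The choice of the list with earlier results known makes this overlap no independent test either. Across regions Mt1, Mt2 and Nfkbia were not called in either experiment, and under plasma Mt1 (-0.07) and Mt2 (-0.15) were lower in YMP mice.

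By region means in AL mice (log2 CPM, 15 regions, 14231 genes), the genes most like Cdkn1a were Itgav (r = 0.926), Midn (0.901) and Rel (0.896). For Bbc3 they were Eif4e3, Prdm10 and Med23 (0.892 to 0.911), for Bax Bcl6, Slc26a6 and Tmem87a (0.913 to 0.914) and for Mdm2 Tmed7, Gsr and Mfsd14b (0.830 to 0.851). For Ccng1 they were Vps9d1, Cdipt and Rgs7 (0.905 to 0.910), and for Trp53inp1 Trim12c, Xntrpc and Tstd1 (0.927 to 0.936). In PBS mice, which did not enter this choice, the r values of the Cdkn1a genes were 0.955, 0.870 and 0.906, and those of the Bax genes 0.674, 0.644 and 0.483. Between the 2 sets of mice, region means of the same gene correlated at 0.979 for Cdkn1a, 0.812 for Bax and 0.909 to 0.924 for the other 4.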

How the data were processed

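RNA from brain regions and liver was made into full-length cDNA and unstranded libraries, per the labels' protocols. The submitters' processing notes name Trim Galore 0.3.7, STAR 2.5.3a, DESeq2 and GRCm38. The authors deposited raw read counts per gene, which were used as deposited. The 8 genes and the gene lists were chosen with earlier results of these data known. Treatments were compared within each tissue with edgeR 4.0.16 (R 4.3.3; quasi-likelihood test, TMM, genes kept by filterByExpr with a minimum count of 10 and total of 15). Across brain regions, limma 3.58.1 compared 1 value per mouse, the mouse term of log2 CPM (prior count 2) fitted on region and mouse. Benjamini-Hochberg adjustment ran over all genes tested, and calls are at an adjusted p under 0.05. Alternatives were DESeq2 1.42.0, other scalings and filters, limma voom, and leaving out each mouse. A mouse number marks 1 animal in all its regions and never pairs treatments. The estimated correlation between regions of a mouse was 0.0336 for diet and 0.0769 for plasma. Nothing in the labels names a batch. Counting intervals and limits cover counting error only. The main edgeR and limma tests were first run on counts simulated from the deposited libraries with a known set of genes changed. The simulated libraries held no effect of the mouse, so these runs did not check the sharing of animals between regions. DESeq2 and voom were not run on them. All 8 genes are named throughout. Of each list the called genes are named, or else the 5 with the smallest p, and for each of 6 genes the 3 most like it by region means in AL mice.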

Additional observations from a re-analysis of the deposited data

Results flagged for a closer look

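In groups of 4 to 10, 22 of 254 groups (8.66%) had a highest or lowest value set apart from the others by Dixon's criterion, which chance alone flags in about 1 in 20 groups. Of these, 3 were values of a mouse across brain regions, namely aDR mouse 67 for Cdkn1a (0.58) and Trp53inp1 (0.28), and PBS mouse 84 for Bax (-0.15).

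Single libraries of aDR mouse 67 were set apart for Cdkn1a in cerebellum (44.9 CPM), anterior hippocampus (28.5) and hypothalamus (26.1). The same mouse was set apart for Bbc3 in choroid plexus (13.4 CPM) and Mdm2 in hypothalamus (77.2). Its pons library was set apart for Trp53inp1 (64.9 CPM) and Ccng1 (180.2). Caudate putamen of aDR mouse 64 was set apart for Bax (92.1 CPM, the highest) and Mdm2 (44.6, the lowest). Visual cortex of the same mouse was set apart for Bbc3 (6.05, the lowest). Medulla of aDR mouse 62 was set apart for Trp53inp1 (12.4 CPM).

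Among control mice, AL mouse 69 was set apart for Ccng1 in motor cortex (183 CPM, the highest) and visual cortex (159, the lowest). AL mouse 63 was set apart for Trp53inp1 in pons (6.14). PBS mouse 84 was set apart for Trp53inp1 in motor cortex (12.3 CPM), SVZ (19.1) and thalamus (16.3), and for Bax in entorhinal cortex (35.2). PBS mouse 72 was set apart for Ccng1 in anterior hippocampus (104.8 CPM).

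The diet effect on Bbc3 differed between liver and brain by -1.06 on the log2 scale in the limma test of each mouse's liver value minus its brain value. That call was lost in 7 of 10 alternatives (limma adjusted p up to 0.0956). Across brain regions alone the Bbc3 difference of 0.14 was not called (limma adjusted p = 0.236).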

How the results depend on the processing

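With DESeq2, 2 gene by tissue tests were called for diet (1 with edgeR; Bbc3 in liver and Cdkn1a in cerebellum) and 1 for plasma (0 with edgeR; Cdkn1a in hypothalamus). Leaving out each mouse gave 0 to 1 calls for diet and 0 to 1 for the difference between liver and brain. Across regions, limma voom with no replicate block called 2 of the 8 genes for diet and 2 for plasma, and voom with the mouse as replicate block called 1 for plasma. Both main counts were 0, and the replicate block moved the gene by region calls from 46 to 47 in AL and from 37 to 41 in PBS. The diet difference of Ccng1, near 0, ran from -0.0386 to 0.0388 on leaving out each mouse and was 0.0170 without caudate putamen of aDR mouse 64. Trp53inp1 for plasma ran from -0.438 to 0.0814 on leaving out each mouse, the highest without PBS mouse 84. The cause was not tested. Over 12 values across regions and 192 alternatives, 181 kept direction and side of the threshold, 5 newly passed and 6 changed sign. Over all genes, calls across regions for diet were 123, with 7 to 165 under the other settings of mouse values, 1474 under voom with the replicate block and 2760 without it. For plasma they were 0, with 0 to 1, 486 and 2629. Settings that left out a library of pons or caudate putamen were chosen after seeing the data. Low counts limit Cdkn2a and, in brain, Gdf15.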
